A study of Mus musculus with 12 samples.

Results

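The comparison asks what an ERG transgene changes in a prostate that has already lost Trp53. It sets 3 libraries labelled Pb-ERG, Trp53pc-/- against 3 libraries labelled Trp53pc-/-, which are 6 of the 12 RNA-seq libraries of the series, across all genes. Each library is the prostate tissue of a C57BL/6 mouse, 15 months old. Both groups carry Trp53 alleles deleted by a Cre recombinase that the probasin promoter (Pb) drives in prostate epithelial cells, and only the Pb-ERG, Trp53pc-/- group also carries an ERG transgene under the same promoter. The 3 WT and 3 Pb-ERG libraries, from mice of the same strain and age, were used for the shared estimate of spread and to set the same transgene beside an intact Trp53. Because the promoter is active in prostate epithelium, the blood vessels, stroma and leukocytes in the tissue were not the target of either the deletion or the transgene.

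ERG is a transcription factor of the ETS family, whose members bind DNA around a GGAA core. It is normally active in endothelium and blood cells, and it becomes expressed in prostate epithelium when a TMPRSS2-ERG fusion places it under an androgen-driven promoter, which makes the fusion one of the most common lesions of prostate cancer. p53, the product of Trp53, is a transcription factor that arrests or kills cells with damaged DNA. The probasin promoter is itself androgen-driven and most active in luminal cells, the secretory cells that line the prostate ducts.

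Values are FPKM (fragment counts corrected for the length of the gene and the depth of the library), each multiplied by a factor per library taken from the median ratio over genes, and are called scaled FPKM. This scaling was used because 17 genes, most of them secretory, each took more than 1% of the fragments of some library. Together those genes held 24.02% to 34.7% of the fragments in the Trp53pc-/- libraries but 11.6%, 14.0% and 3.04% in Pb-ERG, Trp53pc-/- replicates 1 to 3. Library totals in the 2 groups were between 19747635 and 28870130 fragments, and libraries of the same group differed by far more than counting error. Fold changes are differences of log2(scaled FPKM + 1), which understate the change of genes with low values, and are given with a standard error (SE) and a p adjusted over all 17758 genes tested with limma and the Benjamini-Hochberg method. All results describe bulk tissue, in which fewer cells of a type and less RNA per cell cannot be told apart.

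One library stood apart from its group and its values are given separately where they matter. Pb-ERG, Trp53pc-/- replicate 3 had a Spearman correlation of 0.8665 to 0.875 with the other 2 libraries of its group, which correlated with each other at 0.9645. Probasin itself (Pbsn) was at 40.1 scaled FPKM in this library, against 5385 and 5457 in replicates 1 and 2 and 6781 to 19130 in the Trp53pc-/- libraries. The summed level of 11 smooth muscle genes was 141.5 there, against 1761 and 1961 in the other 2 libraries of the group. The summed level of 9 skeletal muscle genes was 511.1, against 53.4 and 73.3. Erg was higher in this library than in any of the other 11. Among the Trp53pc-/- libraries, replicate 3 was rich in Sbp, a spermine-binding secretory protein, at 201400 scaled FPKM against 622 and 25770 in replicates 1 and 2.

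**Figure D1:**
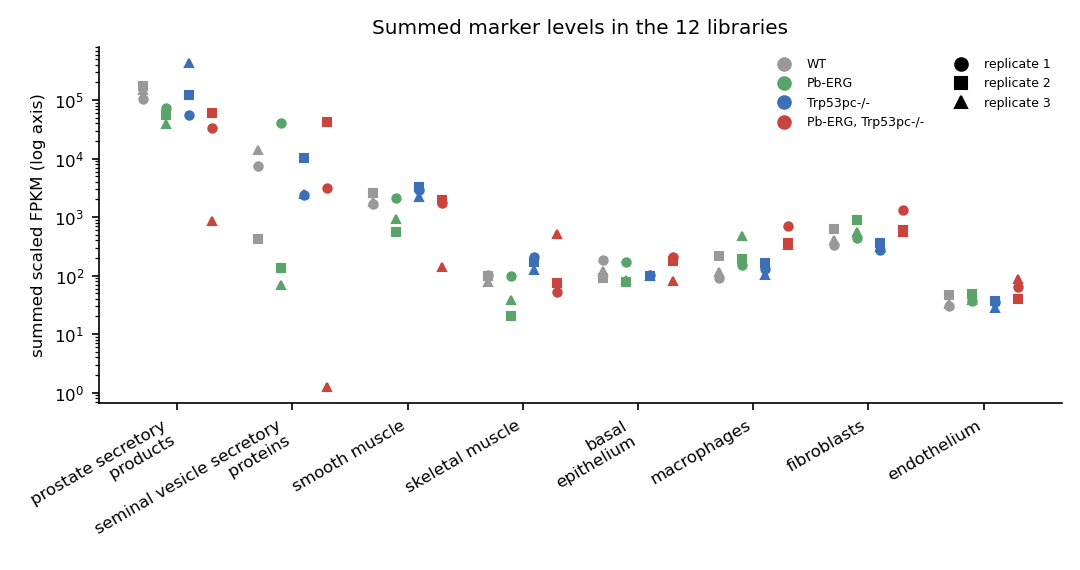
Summed scaled FPKM (log axis) of 8 lists of marker genes in each of the 12 libraries, coloured by genotype, with the replicate number shown by the symbol. The red triangle, Pb-ERG, Trp53pc-/- replicate 3, lies below all other libraries for prostate secretory products (859.4), seminal vesicle secretory proteins (1.24) and smooth muscle (141.5), and above them for skeletal muscle (511.1).

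Erg (chromosome 16, 95359169 to 95586593, minus strand, GRCm38) was elevated in all 3 libraries that carry the transgene. It was at 0.717, 0.771 and 0.330 scaled FPKM in the Trp53pc-/- libraries and at 6.85, 8.66 and 20.4 scaled FPKM in the Pb-ERG, Trp53pc-/- libraries. The groups did not overlap, and the difference was 2.88 on the log2 scale (SE 0.35, adjusted p = 0.00242). A two-sided exact permutation test of Erg alone gave p = 0.1, the smallest that 3 libraries against 3 can give. The reads assigned to Erg may come from the transgene, from the endogenous gene or from both, and the table of genes does not separate them. Trp53 (11.3, 9.72 and 6.55 scaled FPKM without the transgene, 13.9, 9.98 and 16.2 with it) overlapped between the groups, with adjusted p = 0.13. Its level over the whole gene in tissue that also holds undeleted cells does not check the deletion, so Trp53 status is taken from the labels.

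Adding the transgene to the Trp53 deletion changed many genes in both directions. At an adjusted p under 0.05, 1452 genes were upregulated (8.18% of the 17758 tested) and 1107 were downregulated (6.23%), so that 56.7% of the calls were rises. The counts depend on how the spread is estimated. At an adjusted p under 0.001, 27 genes were upregulated (0.152%) and 1, Pecr, a peroxisomal enoyl-CoA reductase, was downregulated (0.00563%). Fitted on the 6 libraries of the 2 groups alone, 209 genes were upregulated and 42 downregulated. Without Pb-ERG, Trp53pc-/- replicate 3, the counts were 1277 and 716, of which 991 and 613 were also called with all libraries. Without Trp53pc-/- replicate 1 they were 478 and 339, without Trp53pc-/- replicate 2 they were 550 and 276, and without Pb-ERG, Trp53pc-/- replicate 1 they were 748 and 482. With FPKM as deposited, 94.9% of the calls were rises (3279 against 178), and the median log2 difference over all genes moved from 0.0019 to 0.29. With library totals that left out the 17 dominant genes, 72.0% were rises (1769 against 687).

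The largest rises were in genes for secreted defence and acute-phase proteins. Reg3b and Reg3g encode C-type lectins that bind bacteria, Lcn2 encodes lipocalin 2, which withholds iron from bacteria, Ltf encodes lactoferrin, and Saa3 encodes a serum amyloid A made outside the liver. Reg3b (chromosome 6, 78370885 to 78373466, plus strand) was at 0, 0.431 and 0.0717 scaled FPKM in the Trp53pc-/- libraries and at 506, 163 and 288 scaled FPKM in the Pb-ERG, Trp53pc-/- libraries. Its 3 Trp53pc-/- libraries held 7 fragments in all, so its rise of 7.97 (SE 0.65, adjusted p = 0.000679) starts from close to no signal. Reg3g went from 1.61, 1.13 and 0.635 to 438, 172 and 1376 scaled FPKM. It rose by 7.82 (SE 0.72, adjusted p = 0.000792). Lcn2 was already present without the transgene, at 12.6, 42.1 and 12.7 scaled FPKM, and reached 1152, 740 and 530 scaled FPKM with it. It rose by 5.26 (SE 0.49, adjusted p = 0.000792). Every library with the transgene lay far above every library without it for these 3 genes. A lack of overlap was a condition for choosing the largest rises and falls, so it is not a separate result for them.

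Saa3 showed the same order, from 1.42, 1.03 and 0.922 to 241, 35.0 and 70.9 scaled FPKM, a rise of 5.34 on the log2 scale. Ltf went from 0.0648, 0.159 and 0.0397 to 139, 15.7 and 34.7 scaled FPKM, a rise of 5.33. Wfdc18, a small whey acidic protein family member, rose by 6.10 and Wfdc2, the gene of the epididymal secretory protein HE4, by 5.01. Otos, which encodes otospiralin, went from 5 fragments over all 3 Trp53pc-/- libraries to 21.5, 58.3 and 41.2 scaled FPKM. Lman1l, a homologue of a lectin that carries cargo out of the endoplasmic reticulum, rose by 5.36. Spp1, the gene of the matrix protein osteopontin, went from 0.593, 0.827 and 0.891 to 70.6, 8.25 and 142.6 scaled FPKM, a rise of 4.69. These 7 genes did not overlap between the groups, which their choice required.

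Of the 21 tested acute-phase and mucosal defence genes, 10 were upregulated (47.6%, against 8.18% of all genes) and 0 downregulated. Their median log2 difference was 2.32. Reg3b, Reg3g, Wfdc18 and Lcn2, named above as largest rises, are among them. The list was also chosen with earlier results of these data known, so its share is a description and not separate evidence. Beside those named above, Cp, the copper-carrying ferroxidase ceruloplasmin, went from 6.54, 5.54 and 12.1 to 132.5, 124.6 and 110.8 scaled FPKM. It rose by 3.83 (SE 0.40, adjusted p = 0.00107), and the groups did not overlap. Slpi, a protease inhibitor of mucosal surfaces, rose by 2.77 and Chil1, a chitinase-like protein, by 1.17. In the fit on 6 libraries 8 of the 21 were upregulated, and leaving out a library gave 8 to 13. S100a8, S100a9 and Hp, which neutrophils also make in quantity, overlapped between the groups.

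The other 2 of the 12 largest rises had the most uneven values. Sprr2a3, a cornified envelope gene, was at 31.0, 14.8 and 721 scaled FPKM with the transgene, against 0.797 to 2.14 without it. H19, an imprinted noncoding RNA of fetal tissue and muscle, was at 20.02, 40.9 and 1207 scaled FPKM, against 2.19 to 5.56 without it. Both were highest by far in Pb-ERG, Trp53pc-/- replicate 3, although the remaining 2 libraries also lay above all 3 Trp53pc-/- libraries, as their choice required. Without that library the rise fell from 4.84 to 3.17 for Sprr2a3 and from 4.599 to 2.82 for H19. Both lost their call when any 1 Trp53pc-/- library was left out, with adjusted p of 0.0521 to 0.0656 for Sprr2a3 and 0.0705 to 0.0896 for H19. The other 10 kept theirs under each of the 6 omissions, and in the fit on 6 libraries 9 of the 12 passed.

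**Figure D2:**
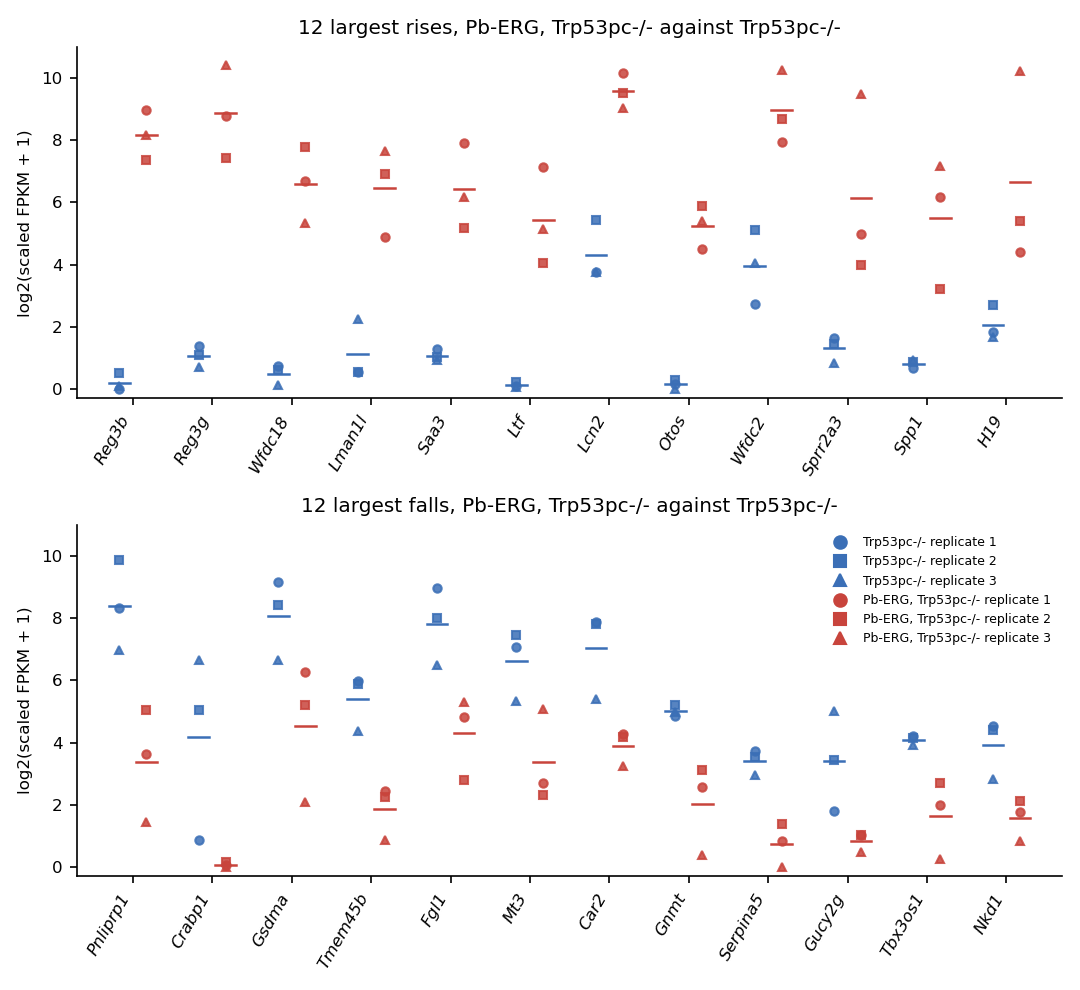
log2(scaled FPKM + 1) in each Trp53pc-/- library (blue) and each Pb-ERG, Trp53pc-/- library (red) for the 12 genes with the largest rises and the 12 with the largest falls among called genes whose groups did not overlap, with a horizontal bar at each group's mean. All blue symbols of the rises lie under 3 except for Lcn2 and Wfdc2, and among the rises the 3 red symbols of H19, Sprr2a3 and Spp1 are the most widely spread.

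The largest falls included enzymes, a lipase relative and secreted proteins. Pnliprp1, which encodes a pancreatic lipase related protein, went from 319, 936 and 126 to 11.4, 32.3 and 1.74 scaled FPKM. It fell by 5.01 (SE 1.08, adjusted p = 0.018). Tmem45b, a transmembrane protein gene, went from 61.9, 58.1 and 19.9 to 4.40, 3.77 and 0.845 scaled FPKM, and fell by 3.56 (SE 0.62, adjusted p = 0.00906). Gnmt, the glycine N-methyltransferase that uses up S-adenosylmethionine, went from 27.9, 36.1 and 31.0 to 4.91, 7.62 and 0.302 scaled FPKM. It fell by 3.005 (SE 0.56, adjusted p = 0.0109). Car2, carbonic anhydrase 2, fell by 3.15 and Fgl1, a secreted fibrinogen-like protein, fell by 3.52. All 3 libraries with the transgene lay below all 3 without it for these 5 genes, which their choice required.

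Nkd1, an inhibitor and a target of Wnt signalling, fell by 2.35, from 22.4, 20.4 and 6.15 to 2.45, 3.39 and 0.801 scaled FPKM. Tbx3os1, an antisense transcript beside Tbx3, fell by 2.43. The other 5 of the 12 were Crabp1 (-4.12), a retinoic acid carrier, Gsdma (-3.57), a gasdermin, Mt3 (-3.25), a metallothionein, Serpina5 (-2.68), a protease inhibitor of seminal fluid, and Gucy2g (-2.58), a guanylyl cyclase. Crabp1 was at 0.830, 31.9 and 100.3 scaled FPKM in the Trp53pc-/- libraries and at most 0.109 with the transgene, so that the mice without the transgene differed widely among themselves. Fewer of the falls than of the rises kept their call when a library was left out. Of the 12, Tmem45b and Gnmt kept their call under all 6 omissions of a library, and 4 kept it without Trp53pc-/- replicate 1, 2 without Trp53pc-/- replicate 2 and 7 without Pb-ERG, Trp53pc-/- replicate 3. In the fit on 6 libraries only Serpina5 passed (adjusted p = 0.042).

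Most of the listed genes that interferons induce were upregulated. These genes encode sensors of viral RNA, enzymes that degrade it and the transcription factors that switch the program on. Of the 28 in the list, 20 were upregulated (71.4%, against 8.18% of all genes) and 0 downregulated at an adjusted p under 0.05. The median log2 difference was 1.70, against 0.0019 over all genes. The list's median lay 1.25, 1.56 and 2.22 above the mean of the Trp53pc-/- libraries in Pb-ERG, Trp53pc-/- replicates 1 to 3, and so was higher in all 3 libraries. In the fit on 6 libraries 10 of the 28 were upregulated. Leaving out a library gave 8 to 17 upregulated members, with 8 without Trp53pc-/- replicate 1, 9 without Trp53pc-/- replicate 2 and 13 without Pb-ERG, Trp53pc-/- replicate 3. The groups did not overlap for 26 members that were higher, against 18.8% of all genes tested.

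Ddx58, which encodes the RNA sensor RIG-I, was at 3.38, 3.19 and 2.58 scaled FPKM without the transgene and at 13.1, 18.7 and 11.4 scaled FPKM with it. Its rise was 1.90 (SE 0.23, adjusted p = 0.00215). Usp18, the protease that removes ISG15 from proteins and damps the interferon receptor, went from 2.18, 2.65 and 1.29 to 11.96, 23.6 and 26.0 scaled FPKM. It rose by 2.78 (SE 0.43, adjusted p = 0.00604). Oasl2, of the 2′-5′ oligoadenylate synthetase family, went from 2.97, 2.88 and 2.84 to 18.3, 45.4 and 31.1 scaled FPKM, a rise of 2.98 (SE 0.54, adjusted p = 0.0104). Its relative Oas3 rose by 1.35 from near 0 (0.00940 to 0.104 scaled FPKM) to between 1.11 and 2.13. Irf7 (2.53), a transcription factor of the pathway, rose, as did Isg15 (3.06), Ifit1 (2.25), Ifit3 (2.03) and Bst2 (1.51). Ddx58, Oas3, Usp18 and Oasl2 kept their call in the fit on 6 libraries and under all 6 omissions.

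The 8 members that did not pass were Irf1, Irf9, Mx1, Oas2, Ifit2, Gbp2, Gbp7 and Stat2. Mx1, of the Mx family of GTPases, differed from the rest in sign. It was at 7.89, 7.27 and 3.89 scaled FPKM without the transgene and 2.96, 2.04 and 3.55 with it (log2 difference -0.90, adjusted p = 0.0732). In the WT and Pb-ERG libraries the list's median difference was 0.78 and 0 members were called. The test of the difference between the 2 effects called 0 members, while its median was 0.96.

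**Figure D3:**
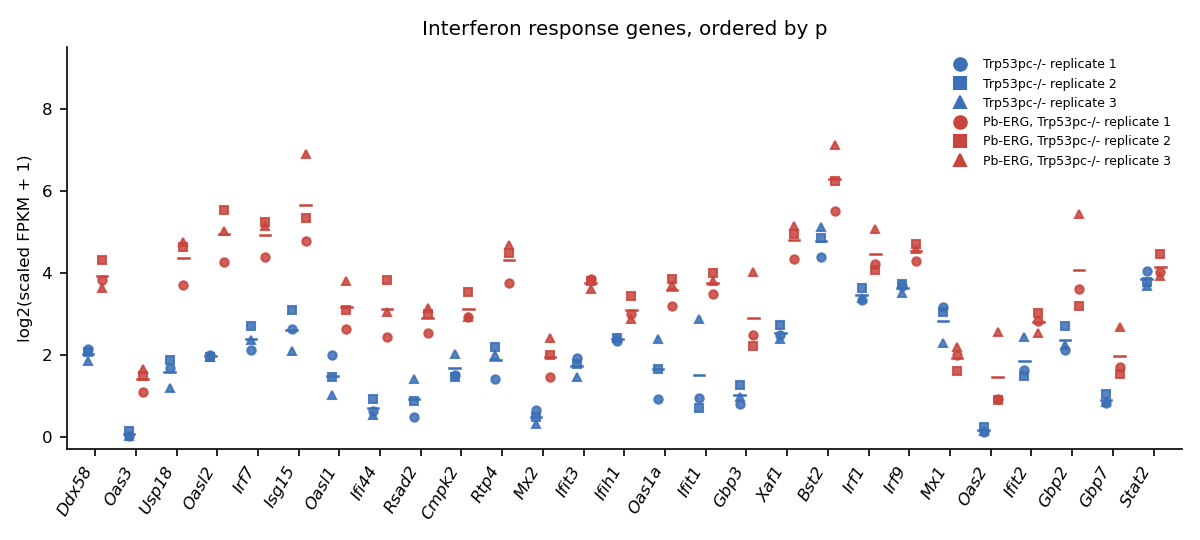
log2(scaled FPKM + 1) of 27 interferon response genes in the Trp53pc-/- libraries (blue) and the Pb-ERG, Trp53pc-/- libraries (red), ordered by p from left to right, with a bar at each group's mean. Red symbols lie above blue ones without overlap for 25 genes, Mx1 is reversed and Stat2 overlaps.

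Interferon-induced promoters are known for an interferon-stimulated response element, a pair of GAAA blocks set a fixed distance apart, which is bound by IRF and STAT proteins. The 250 bases before the RefSeq start (GRCm38.p6) were searched on both strands for GAAA followed by any 2 bases and GAAA. RefSeq promoter windows were given for 22 of the 28 list members, and 11 of these 22 (50.0%) held the letters, against 3.27% of the 11726 tested genes with a window. Of the 16 upregulated members with a window, 8 (50%) held them, the same share as in the whole list. Ddx58, Oasl2 and Irf7 were among those that did not. The list was drawn up as genes that interferons induce, so its share of these letters is not a result about the transgene. Of the 1027 upregulated genes with a window 6.52% held them, and of the 784 downregulated genes 2.81%. The letters GGAAGT, a core bound by ETS factors such as ERG, stood in 25.9% of the tested genes with a window. They stood in 25.9% of the upregulated genes, 26.1% of the downregulated genes and 2 of the 22 interferon list members. The longer ETS consensus ACCGGAAGT stood in 1.61% of the tested genes, 0.487% of the upregulated genes (5 genes) and 1.79% of the downregulated genes. A match is only a run of letters and is not a measured binding site.

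The windows of 4 upregulated interferon genes, picked from those that hold a match, are printed. They place the matched letters, which are in capitals and can overlap, against the start of the gene. Each is the 250 bases before the start, read 5′ to 3′ on the gene's strand in GRCm38.p6. Isg15 is at chr4:156200819-156201068 (minus strand), Oas1a at chr5:120907526-120907775 (minus strand), Oas3 at chr5:120777660-120777909 (minus strand) and Ifit1 at chr19:34640639-34640888 (plus strand).
Isg15: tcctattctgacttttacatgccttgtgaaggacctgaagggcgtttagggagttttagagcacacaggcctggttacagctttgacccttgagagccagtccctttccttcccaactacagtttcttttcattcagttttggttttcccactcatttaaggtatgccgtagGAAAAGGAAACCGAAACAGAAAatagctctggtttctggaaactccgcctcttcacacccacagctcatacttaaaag
Oas1a: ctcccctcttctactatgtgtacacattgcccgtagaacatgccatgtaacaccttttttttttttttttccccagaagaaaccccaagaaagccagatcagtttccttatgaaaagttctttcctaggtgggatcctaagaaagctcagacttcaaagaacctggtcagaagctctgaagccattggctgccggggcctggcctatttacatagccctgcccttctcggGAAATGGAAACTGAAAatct
Oas3: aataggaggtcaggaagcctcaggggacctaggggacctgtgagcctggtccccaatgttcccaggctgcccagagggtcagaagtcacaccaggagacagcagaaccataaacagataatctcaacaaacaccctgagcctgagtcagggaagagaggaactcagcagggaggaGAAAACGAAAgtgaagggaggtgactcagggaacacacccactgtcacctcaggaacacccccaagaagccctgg
Ifit1: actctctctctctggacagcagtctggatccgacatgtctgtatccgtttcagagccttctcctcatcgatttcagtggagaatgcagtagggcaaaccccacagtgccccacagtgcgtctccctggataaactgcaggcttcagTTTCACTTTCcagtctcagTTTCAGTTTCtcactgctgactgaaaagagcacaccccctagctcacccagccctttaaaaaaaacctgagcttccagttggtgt
In Isg15 the run begins 78 bases before the start and holds 3 overlapping matches. In Oas1a it holds 2 overlapping matches and begins 20 bases before the start. Oas3 holds 1 match, at 75 bases before it, and Ifit1 holds 2 separate ones, at 104 and 85 bases before it. All 4 genes were upregulated, Oas1a by 1.93 on the log2 scale (adjusted p = 0.0325). Without Pb-ERG, Trp53pc-/- replicate 3, Oas1a and Ifit1 lost their call (limma, adjusted p = 0.0688 and 0.0827). Isg15 and Oas3 kept theirs (adjusted p = 0.02 and 0.00865).

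Part of the chemokine genes and the macrophage markers were also upregulated. Of 28 tested chemokine and cytokine genes, 9 were upregulated and 0 downregulated (32.1%, against 8.18% of all genes upregulated), and the median log2 difference was 1.16. Cxcl16, a membrane-bound chemokine and scavenger receptor, had the smallest p of them and went from 4.51, 5.88 and 5.06 to 40.0, 33.5 and 21.5 scaled FPKM. Its rise of 2.37 (SE 0.24, adjusted p = 0.000945) held under all 6 omissions and in the fit on 6 libraries. Ccl8 and Ccl7, which attract monocytes, rose by 2.71 and 1.51, Il1b, an inflammatory cytokine, by 1.95 and Cxcl1, a neutrophil attractant, by 2.28. The others were Cxcl2, Cxcl14, Csf1 and Tnf, by 0.77 to 1.54. Il18, a cytokine of epithelial cells, was at 23.8, 17.2 and 6.55 scaled FPKM without the transgene and 4.597, 2.58 and 4.05 with it, and did not pass (adjusted p = 0.0808). The count was 1 without Trp53pc-/- replicate 1, 3 without Trp53pc-/- replicate 2 or 3, 2 without Pb-ERG, Trp53pc-/- replicate 1, 5 without Pb-ERG, Trp53pc-/- replicate 3 and 2 in the fit on 6 libraries.

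Of 10 macrophage markers 6 (60%, against 8.18% of all genes) were upregulated: Mpeg1, Cd68, C1qa, C1qb, C1qc and Emr1. The median log2 difference of the 10 was 1.59. Mpeg1, which encodes the pore-forming protein perforin-2, went from 5.07, 5.65 and 5.46 to 49.7, 29.6 and 25.9 scaled FPKM, a rise of 2.44 (SE 0.36, adjusted p = 0.00508). The summed macrophage level was 103.9 to 163.5 scaled FPKM in the Trp53pc-/- libraries and 331.3 to 694.5 with the transgene. The pan-leukocyte markers Laptm5, Cd53, Ptprc and Coro1a rose by 1.39 to 1.76, while Cd52 overlapped between the groups. T cell markers showed 1 rise among 9 (Cd8b1, 0.99), neutrophil markers 2 among 6 (Retnlg and Csf3r), MHC class II genes 1 among 7 (Cd74, 1.87) and B and plasma cell markers 0 among 8. As shares these are 11.1%, 33.3%, 14.3% and 0%. The macrophage count was 8 without Pb-ERG, Trp53pc-/- replicate 3, 1 without Pb-ERG, Trp53pc-/- replicate 1, and 1, 3 and 2 without Trp53pc-/- replicates 1 to 3. The leukocyte count was 1 without Pb-ERG, Trp53pc-/- replicate 1 and 2 without Pb-ERG, Trp53pc-/- replicate 3 or any 1 Trp53pc-/- library. Without Trp53pc-/- replicate 1 the T cell, neutrophil and MHC class II counts were 0. These markers moved in the same libraries as the interferon and chemokine genes, and their part in those results was not tested.

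**Figure D4:**
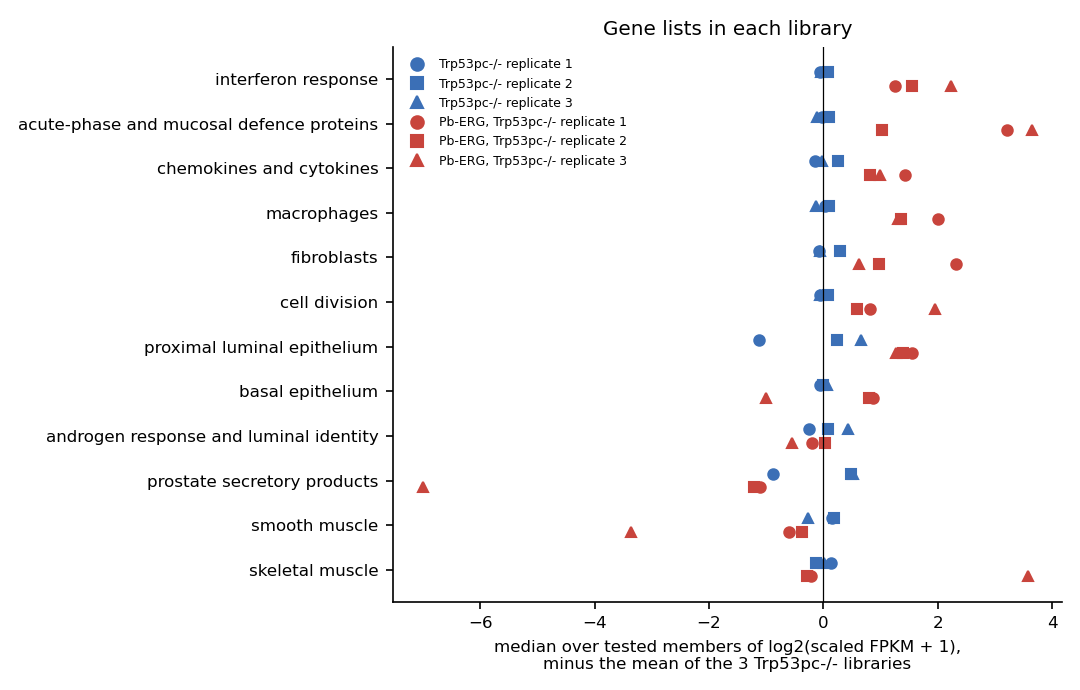
Median over the tested members of each of 12 gene lists of log2(scaled FPKM + 1), minus the mean of the 3 Trp53pc-/- libraries, for each Trp53pc-/- library (blue) and each Pb-ERG, Trp53pc-/- library (red). For the interferon, acute-phase, chemokine, macrophage, fibroblast, cell division and proximal luminal lists the 3 red symbols lie right of the 3 blue ones. For prostate secretory products (-6.99, against -1.11 and -1.22), basal epithelium, smooth muscle and skeletal muscle, replicate 3 (red triangle) departs from the other 2.

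A few genes of luminal secretion fell, and Pb-ERG, Trp53pc-/- replicate 3 had the lowest value of the 6 libraries for 8 of the 12 secretory products. Among 12 secretory products 3 (25%, against 6.23% of all genes) were downregulated, Fgl1, Sbp and Sbpl, and 0 upregulated. The median log2 difference of the 12 was -3.57. Sbp and Sbpl, which encode spermine-binding proteins of the ventral lobe, overlapped between the groups: Sbp was at 622, 25770 and 201400 scaled FPKM without the transgene and at 0.909, 1110 and 0.760 with it (log2 difference -9.90, adjusted p = 0.0359). Tgm4, the prostate transglutaminase, was at 5190 to 31980 scaled FPKM without the transgene and at 7793, 5552 and 37.8 with it (adjusted p = 0.212). Msmb, which encodes microseminoprotein, was at 659 to 5457 scaled FPKM without the transgene and at 3516, 11090 and 431 with it. Defb50, a defensin, was at 3202 to 14190 scaled FPKM without the transgene and at 15830, 28720 and 223 with it, so replicates 1 and 2 lay above all Trp53pc-/- libraries and replicate 3 below them. Without replicate 3 the list's median was -1.23, and 1 of the 12 was downregulated. The number downregulated was also 1 without Pb-ERG, Trp53pc-/- replicate 1 or Trp53pc-/- replicate 3, and 0 without Trp53pc-/- replicate 2. Seminal vesicle secretory proteins, of which 0 of 7 passed, summed to 2353 to 10380 scaled FPKM without the transgene and to 3101, 42750 and 1.24 with it. Their part in the results on secretory genes was not tested.

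Of 18 genes of androgen response and luminal identity, 3 were downregulated (16.7%, against 6.23% of all genes) and 1 upregulated (5.56%, against 8.18%), and 0 passed in either direction in the fit on 6 libraries. Hoxb13, a homeobox factor of the prostate, went from 119, 188 and 226 to 66.0, 80.5 and 57.5 scaled FPKM. It fell by 1.33 (SE 0.24, adjusted p = 0.0102) and kept its call under all 6 omissions, with adjusted p = 0.0719 in the fit on 6 libraries. Tmprss2, whose human promoter drives ERG in the TMPRSS2-ERG fusion, fell by 1.61 and Slc45a3, a luminal transporter, by 1.59. Steap4, a metalloreductase, rose by 2.64, from between 3.18 and 5.21 to 27.1, 16.7 and 75.2 scaled FPKM. Tmprss2 lost its call without Trp53pc-/- replicates 1 and 2 (adjusted p = 0.0838 and 0.0786), Slc45a3 without Pb-ERG, Trp53pc-/- replicates 1 and 3 (adjusted p = 0.0641 and 0.0683) and Steap4 without Trp53pc-/- replicate 1 (adjusted p = 0.0584).

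Several markers of proximal luminal cells, the luminal cells of the ducts nearest the urethra, were upregulated. Of 10, 4 were upregulated (40%, against 8.18% of all genes), among them Wfdc2, Ly6d and Clu, and 0 were downregulated (median 1.79). Clu, which encodes the chaperone clusterin, went from 371, 264 and 296 to 6626, 5635 and 1076 scaled FPKM, a rise of 3.48 (SE 0.80, adjusted p = 0.0222). Its rise was larger without replicate 3, at 4.31. Clu lost its call without Pb-ERG, Trp53pc-/- replicate 1 and without Trp53pc-/- replicates 1 and 2 (adjusted p = 0.066, 0.0617 and 0.0704). Ly6d (3.70) kept its call under all 6 omissions. Psca and Krt4, of the same list, overlapped between the groups, and 1 of the 10 passed in the fit on 6 libraries. The count was 2 without Pb-ERG, Trp53pc-/- replicate 1 and without Trp53pc-/- replicate 1 or 2.

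Basal markers lay on either side of the Trp53pc-/- libraries, depending on the mouse. Krt5, the basal keratin, was at 22.0, 18.7 and 21.7 scaled FPKM without the transgene and at 37.0, 31.6 and 1.12 with it. Trp63, the p63 factor that defines basal cells, was at 1.72, 2.37 and 2.08 without the transgene and at 2.94, 3.22 and 0.106 with it. Replicates 1 and 2 thus lay above all Trp53pc-/- libraries and replicate 3 below them, and neither gene passed the test. Itgb4 (1.10) and Krt17 (2.02) were the 2 of 10 basal markers that were upregulated (20%, against 8.18% of all genes). Both lost their call without Trp53pc-/- replicate 1 (adjusted p = 0.0826 and 0.115) and without Trp53pc-/- replicate 2 (0.0773 and 0.109). Itgb4 also lost it without Pb-ERG, Trp53pc-/- replicate 1 (adjusted p = 0.0595) and Krt17 without Trp53pc-/- replicate 3 (adjusted p = 0.0879). Of 7 tested neuroendocrine markers, 1 (14.3%), Calca, was upregulated. Syp and Chga were highest in replicate 1 (5.87 and 3.23 scaled FPKM, against at most 1.13 without the transgene).

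Some collagen genes of the stroma were upregulated. Of 10 fibroblast markers, Col1a1, Col1a2, Col3a1 and Pdgfra were upregulated (40%, against 8.18% of all genes) and 0 were downregulated (median 1.44). Col1a2, a chain of type I collagen, went from 11.6, 10.04 and 16.7 to 113, 38.2 and 68.5 scaled FPKM. It rose by 2.33 (SE 0.41, adjusted p = 0.00921) and kept its call under all 6 omissions. Col1a1 rose by 2.88 and Col3a1 by 2.85. Among all genes with a collagen symbol, a group chosen after values were seen, 14 of 36 tested (38.9%) were upregulated and 0 downregulated. Of 39 MMP, ADAMTS and TIMP genes, likewise chosen, 9 (23.1%) were upregulated and 0 downregulated. In the fit on 6 libraries 0 of the 10 fibroblast markers, 0 of the 36 collagen genes and 1 of the 39 MMP, ADAMTS and TIMP genes passed. The fibroblast count was 2 without Trp53pc-/- replicate 2. Dcn, the fibroblast proteoglycan decorin, was at 684 and 386 scaled FPKM in replicates 1 and 2, above the Trp53pc-/- libraries (172 to 259), and at 72.6 in replicate 3.

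Of 11 smooth muscle genes, 0 passed in either direction, though all 11 were lower on average and 8 did not overlap between the groups, against 16.6% of all genes that lay lower without overlap (median -1.33). Acta2, smooth muscle actin, was at 800, 934 and 673 scaled FPKM without the transgene and at 522, 576 and 20.9 with it (adjusted p = 0.188). Without replicate 3 the test also called 0 of the 11, and the median was -0.47. Of 9 skeletal muscle genes, 8 were highest of the 6 libraries in replicate 3, for example Tnnt3 at 121 scaled FPKM against at most 1.03 in the other 5. Acta1, skeletal muscle actin, was at 105.5 in that library, below the Trp53pc-/- libraries (197.7, 160.2 and 115.1), and 0 of the 9 passed. Endothelial markers, among which ERG itself is a defining gene, were upregulated in 4 of 11 cases (36.4%, against 8.18% of all genes). These were Pecam1, Kdr, Cdh5 and Esam, by 0.82 to 1.23, and 0 of the 4 passed in the fit on 6 libraries. Each lost its call when any library but Pb-ERG, Trp53pc-/- replicate 2 was left out, with adjusted p of 0.0514 to 0.131. The summed endothelial level was 27.8 to 36.6 scaled FPKM without the transgene and 63.7, 39.7 and 87.0 with it.

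Of 32 cell division genes 19 were upregulated (59.4%, against 8.18% of all genes) and 0 downregulated. The median was 1.12, and all 32 had a positive difference. Mki67, the proliferation marker Ki67, went from 0.405, 0.498 and 0.529 to 2.998, 2.92 and 8.22 scaled FPKM, a rise of 1.83 (SE 0.31, adjusted p = 0.0085). Tpx2, a spindle assembly factor, rose by 1.65, Mcm6, part of the replicative helicase, by 1.58 and Kif11, a mitotic kinesin, by 1.15. The list's median lay 0.81, 0.59 and 1.955 above the Trp53pc-/- mean in replicates 1 to 3. Top2a, a topoisomerase of dividing cells, was at 5.17 and 4.92 scaled FPKM in replicates 1 and 2 and 41.4 in replicate 3, against 1.68 to 2.56 without the transgene (adjusted p = 0.067). Without replicate 3 the list held 19 rises, Top2a among them (adjusted p = 0.0359). It held 6, 7 and 11 without Trp53pc-/- replicates 1, 2 and 3 and 0 in the fit on 6 libraries, where Mki67 had adjusted p = 0.0651.

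Genes of pyrimidine synthesis, which supply nucleotides for DNA and RNA and are a subject of the study, did not move together. Of 20, Umps was upregulated (5%, against 8.18% of all genes) and Dhodh, Nme1, Uck1 and Tk2 were downregulated (20%, against 6.23%). The median log2 difference was -0.014. Umps, the enzyme that makes UMP, went from 1.63, 1.72 and 0.984 to 3.38, 2.57 and 4.51 scaled FPKM. It rose by 0.87 (SE 0.19, adjusted p = 0.0196), with an adjusted p of 0.05 without Pb-ERG, Trp53pc-/- replicate 1. Rrm2, a subunit of ribonucleotide reductase, was at 2.94, 4.45 and 3.99 without the transgene and at 10.1, 5.70 and 32.5 scaled FPKM with it (1.51, adjusted p = 0.0594). Its partner Rrm1 (0.86, adjusted p = 0.0657) and thymidylate synthase, Tyms (0.53, adjusted p = 0.13), had all 3 libraries above the Trp53pc-/- libraries without passing. Dhodh, the mitochondrial step before Umps, fell by 0.91 (SE 0.22, adjusted p = 0.0246), from 10, 10.4 and 6.80 to 4.11, 4.798 and 3.997 scaled FPKM. Without Pb-ERG, Trp53pc-/- replicate 3 the count of falls was 1, and it was 0 without Pb-ERG, Trp53pc-/- replicate 1, without Trp53pc-/- replicate 1 or 2 and in the fit on 6 libraries. With FPKM as deposited 6 of the 20 were upregulated, 0 downregulated and the median was 0.37.

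Of 33 genes of the Wnt and beta-catenin pathway, 7 were upregulated and 1, Nkd1, was downregulated (21.2% and 3.03%, against 8.18% and 6.23% of all genes), with a median of 0.38. Ctnnb1, which encodes beta-catenin, was at 120, 109 and 169 scaled FPKM without the transgene and 202, 169 and 228 with it. Its difference was 0.60 (SE 0.19, adjusted p = 0.0553), so it did not pass. It did pass without Pb-ERG, Trp53pc-/- replicate 2 (adjusted p = 0.0408) and without Trp53pc-/- replicate 3 (adjusted p = 0.0233). Dkk3 and Dkk2, of a family of secreted Wnt modulators, rose by 1.71 (adjusted p = 0.00138) and 2.10 (adjusted p = 0.00626). Cd44, a surface receptor for hyaluronan, rose by 2.85, from between 1.22 and 1.80 to 24.6, 13.7 and 15.0 scaled FPKM. Lrp5, a Wnt co-receptor, rose by 0.89, and Sfrp1, Fzd1 and Wnt10a by 2.44, 1.21 and 0.55. Dkk3, Dkk2, Cd44 and Lrp5 kept their call under all 6 omissions. The list held 4 rises without Pb-ERG, Trp53pc-/- replicate 1 and without Trp53pc-/- replicate 1 or 2, and 3 rises and 0 falls in the fit on 6 libraries. Nkd1 lost its call without Pb-ERG, Trp53pc-/- replicate 3 (adjusted p = 0.0517) and without Trp53pc-/- replicates 1 and 2 (adjusted p = 0.0753 and 0.0742). The feedback target Axin2 (13.3, 11.7 and 4.33 scaled FPKM without and 9.63, 12.9 and 2.90 with the transgene) overlapped.

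ETS family genes showed 7 rises and 0 falls among 19 tested, against 8.18% and 6.23% of all genes. Beside Erg these were Elf3 (1.23), an epithelial ETS factor, Ets2 (0.72), Etv4 (0.77), Ets1 (0.97), Elk3 (1.47) and Spi1 (1.02), the last a factor of myeloid cells. Elf3 went from 5.87, 9.65 and 11.2 to 25.1, 21.6 and 18.5 scaled FPKM. Ehf and Elf5, ETS factors of differentiated epithelium, were at 203 to 350 and 7.87 to 70.4 scaled FPKM without the transgene and at 124, 124 and 18.3 and 10.8, 13.5 and 0.0294 with it, and neither passed (adjusted p = 0.0657 and 0.204). Of 11 genes tied to ERG in earlier prostate work, 3 rose (27.3%): Ezh2 (1.30), a histone methyltransferase, Plat (3.30), tissue plasminogen activator, and Mmp9 (0.84), a gelatinase. Plat was at 27.2, 20.8 and 175 scaled FPKM with the transgene, against 3.03 to 4.59 without it. Ezh2 and Plat lost their call without Trp53pc-/- replicates 1 and 2 (adjusted p of 0.0527 to 0.0622), and Mmp9 lost its call under each omission but that of Pb-ERG, Trp53pc-/- replicate 2 (adjusted p of 0.0722 to 0.109). The ETS count was 3 without Trp53pc-/- replicate 1. In the fit on 6 libraries 1 of the 19 ETS genes, Erg, and 0 of the 11 passed. A list of ERG-bound genes that the study chose in part on libraries of this experiment had 181 rises (36.1%) and 0 falls among 501 tested genes. It had 8 rises in the fit on 6 libraries, 105 without Pb-ERG, Trp53pc-/- replicate 3 and 27 without Trp53pc-/- replicate 1. The study drew the list from genes upregulated in tumours with the transgene and a Trp53 mutant but not in Pb-ERG, Trp53pc-/- tissue. That choice used a stricter threshold than the one here. That list is not independent evidence of its direction.

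Of 28 p53 target genes, 4 were upregulated (14.3%, against 8.18% of all genes) and 0 downregulated in the comparison, where both groups are labelled as Trp53-deleted. Cdkn1a, the cell cycle inhibitor p21, went from 2.06, 3.68 and 4.67 to 10.8, 8.20 and 28.8 scaled FPKM. It rose by 1.77 (SE 0.43, adjusted p = 0.0259), and lost its call without Trp53pc-/- replicates 1 and 2 (adjusted p = 0.0882 and 0.0686). Pmaip1, the death effector Noxa, rose by 2.05, Plk2, a kinase, by 1.70 and Phlda3, an inhibitor of Akt, by 0.89. Mdm2, the ligase that degrades p53, overlapped (20.6, 19.6 and 16.1 scaled FPKM without and 13.4, 15.1 and 19.6 with the transgene). The median of the list was 0.22, and 1 of the 28 was upregulated in the fit on 6 libraries and 2 without Trp53pc-/- replicate 1. Phlda3 kept its call without Pb-ERG, Trp53pc-/- replicate 2 or Trp53pc-/- replicate 2 and lost it under the other 4 omissions (adjusted p of 0.0774 to 0.125).

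Other metabolic and secretory lists held few calls, with single genes that changed strongly. Qsox1, which forms disulphide bonds in secreted proteins, went from 14.7, 20.1 and 26.4 to 211, 332 and 214 scaled FPKM. It rose by 3.57 (SE 0.26, adjusted p = 0.000496) and was the only rise among 28 folding genes (3.57%, against 8.18% of all genes). Of the 28, Sdf2l1 and Eif2ak3 fell (7.14%, against 6.23%) and 24 had a negative difference. The folding genes held 0 falls in the fit on 6 libraries, without Pb-ERG, Trp53pc-/- replicate 1 or 3 and without Trp53pc-/- replicate 1 or 2. In polyamine metabolism, by which the prostate makes spermine, Srm (spermidine synthase) fell by 1.46, from 79.2, 90.0 and 86.0 to 24.3, 33.5 and 34.3 scaled FPKM (SE 0.17, adjusted p = 0.00179). Sms (spermine synthase) fell by 1.06 and Smox (spermine oxidase) rose by 1.16, and all 3 kept their call under the 6 omissions. Of the 10 polyamine genes tested, 2 fell (20%, against 6.23% of all genes) and 1 rose (10%, against 8.18%). In the fit on 6 libraries Srm passed, while Sms and Smox did not (adjusted p = 0.089 and 0.0635). In cholesterol and fatty acid synthesis Lss, Insig1, Msmo1 and Idi1 fell (18.2%, against 6.23% of all genes), by 0.40 to 0.89, and 0 of 22 rose. The number that fell was 1 without Trp53pc-/- replicate 1, 2 without Trp53pc-/- replicate 2 or Pb-ERG, Trp53pc-/- replicate 1, and 0 in the fit on 6 libraries. With FPKM as deposited 1 of the 22 fell and 2 rose. Of 18 junction and mesenchymal genes, Fn1 (1.99), Cldn4 (0.95) and Cdh1 (1.21) rose (16.7%, against 8.18% of all genes), which encode fibronectin, claudin 4 and E-cadherin. The last 2 are epithelial adhesion proteins. In the fit on 6 libraries 0 of the 18 passed. Adipocyte markers showed 0 calls among 7.

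Of 25 HOX genes tested, 0 were upregulated and 1, Hoxb13, was downregulated. The medians of ribosomal protein genes and oxidative phosphorylation genes, groups chosen after values were seen as the HOX genes were, lay below the median of all genes under each scaling tried. The median over 78 ribosomal protein genes was -0.33 with the scaling used here, against 0.0019 over all genes, and 0.12 with FPKM as deposited, against 0.29. Of the 78, 0 were called under either, while library weights called 33 lower (median -0.64). For 84 oxidative phosphorylation genes the medians were -0.36 and 0.084. The first scaling gave 9 falls (10.7%, against 6.23% of all genes) and 1 rise, and the second gave 0 falls and 1 rise. Library weights gave 56 falls and 1 rise (median -0.52), and the fit on 6 libraries called 0 genes of either group.

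The same transgene was also added to an intact Trp53, in the comparison of Pb-ERG with WT, which shares no library with the comparison described so far. There 201 genes were upregulated (1.13% of those tested) and 77 downregulated (0.434%). Of the 201, 162 (80.6%, against 8.18% of all genes) were also upregulated by the transgene in the Trp53-deleted prostate. There they make up 11.2% of the 1452, against 1.13% of all genes. Of the 77, 54 were downregulated in both, where 6.23% of all genes were downregulated in the Trp53-deleted comparison. The 2 sets of calls are not independent, because both rest on 1 spread per gene estimated over all 12 libraries. The 1452 genes had a median log2 difference of 1.12 in the Trp53-deleted and 0.54 in the Trp53-intact comparison. Of them, 1360 had a higher mean in Pb-ERG than in WT, while the median difference of all genes there was 0.0030. The 1107 downregulated genes had medians of -0.75 and -0.33. Since these genes were selected in the Trp53-deleted comparison, the smaller medians in the other are a description. Over all 17758 genes the 2 sets of differences had a Spearman correlation of 0.629 and a Pearson correlation of 0.679, across genes, which are not independent.

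**Figure D5:**
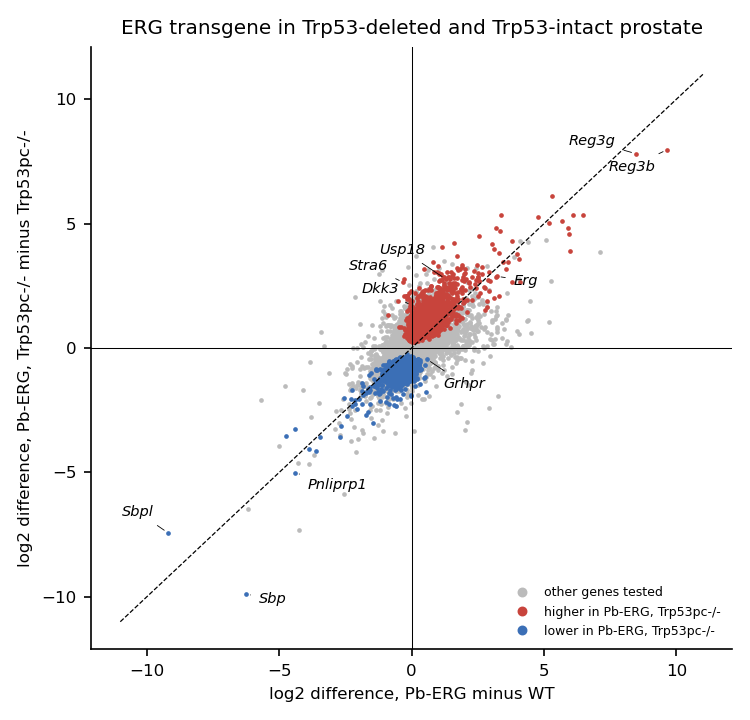
log2 difference of each tested gene between Pb-ERG and WT (horizontal) and between Pb-ERG, Trp53pc-/- and Trp53pc-/- (vertical), with genes upregulated in the vertical comparison in red and downregulated ones in blue, and the dashed line marking equal differences. Reg3b and Reg3g lie near the line at its upper end, while Dkk3 and Stra6 lie near a horizontal difference of 0.

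No gene passed the test of whether the effect of the transgene differed with Trp53 status (interaction in limma, 0 of 17758, smallest adjusted p = 0.248). At an unadjusted p under 0.05, 710 genes had a more positive effect in the Trp53-deleted prostate (4%) and 734 a more negative one (4.13%). Voom on the recovered fragments also called 0. Weighting each library by its estimated spread, which gave Pb-ERG, Trp53pc-/- replicate 3 a weight of 0.152 and replicate 1 a weight of 4.34, called 1993. Leaving out Pb-ERG, Trp53pc-/- replicate 3 called 3 genes, Cldn6, Dpysl3 and Ivl. Leaving out Pb-ERG replicate 1 called 9 and leaving out WT replicate 3 called 1. The 5 genes with the smallest p were Dpysl3, Stra6, Dkk3, Aqp3 and Grhpr, all with adjusted p = 0.248. Dpysl3, a cytoskeletal protein of migrating cells, was at 3.63, 4.38 and 3.87 scaled FPKM in the Trp53pc-/- libraries and 17.1, 16.7 and 12.4 in the Pb-ERG, Trp53pc-/- libraries, but at 5.81 to 6.39 in WT and 6.31 to 8.05 in Pb-ERG. Stra6, the receptor for retinol-binding protein, was at 1.23 to 2.58 and 11.7 to 24.5 scaled FPKM in the Trp53-deleted groups, and at 2.40 to 5.35 and 2.19 to 3.39 in WT and Pb-ERG. Dkk3 showed the same order, with 3.41 to 4.33 scaled FPKM in WT and 3.42 to 4.22 in Pb-ERG. Aqp3, a water and glycerol channel, stayed under 1 scaled FPKM everywhere. Reg3b, Reg3g, Lcn2 and Saa3 were elevated by the transgene in both comparisons, with rises of 9.64, 8.46, 4.78 and 6.11 on the log2 scale over WT.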

How the data were processed

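RNA was extracted from mouse prostate, made into TruSeq libraries and sequenced in pairs on an Illumina HiSeq. The authors aligned the reads to GRCm38 (mm10) with STAR (2.5.2b in the submitters' processing notes) and deposited FPKM per gene, with the fragment total of each library, for 41042 genes. The deposited FPKM values times gene length and library total gave whole fragments for all 492504 values (tolerance 1e-06). Library totals were 19747635 to 32565774 fragments, of which 91.1 to 97.0% lay on listed genes, and a value of 0 allows up to 3 fragments, counting error only.

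Groups came from the labels, 3 mice each. FPKM was scaled by the median of ratios. A minimum of 10 fragments, met in 3 or more libraries, left 17758 genes for limma 3.58.1 (R 4.3.3) with a mean-variance trend on log2(scaled FPKM + 1), with 12 libraries, 4 group means, 8 residual degrees of freedom and Benjamini-Hochberg adjusted p under 0.05. A count model was not used as the main test, because the deposited unit is FPKM; voom on the recovered fragments was an alternative. Tested on simulated data (17758 genes, 200 changed by 2 on the log2 scale, observed spread), the fit recovered 83.0% of the changed genes with 12 false calls. The simulated noise was independent between genes and had the same spread in all groups, without an outlying library. The real libraries differ in this, so these figures need not hold for them.

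Named genes were Erg, Trp53, the 12 largest called rises and falls without overlap and a mean of at least 5 in the higher group, up to 4 members of each list by p and those that define it, the 5 genes of smallest interaction p, and Umps, Rrm1, Rrm2, Tyms and Ctnnb1. Some members of the lists are counted in them but are not reported here by name. Unnamed gene models passed over numbered 1 among the rises and 2 among the falls. The lists and the comparison were chosen with earlier results of these data known, and the collagen, MMP, HOX, ribosomal and oxidative phosphorylation groups were added after values were seen. Some genes of near-identical families (Reg3b and Reg3g, Sprr2a3, Sbp and Sbpl, the interferon Oas and Ifit genes) may share reads, which the counting could have split between them. How multiply mapped reads and strand were counted is not given in the sources used here, so an antisense gene such as Tbx3os1 is uncertain. Promoters came from RefSeq (GRCm38.p6). Alternatives covered scaling, filters, pseudocount, thresholds, library weights, the 6 libraries alone, a replicate block and leaving out each library.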

Additional observations from a re-analysis of the deposited data

Results flagged for a closer look

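Grhpr, which encodes glyoxylate and hydroxypyruvate reductase, moved in opposite directions in the 2 comparisons of the ERG transgene. It was at 26.2, 21.9 and 23.2 scaled FPKM in WT and at 32.8, 35.8 and 39.5 in Pb-ERG, a rise of 0.58 on the log2 scale (limma, adjusted p = 0.041). It was at 31.1, 37.1 and 31.5 scaled FPKM in Trp53pc-/- and at 24.04, 22.9 and 25.1 in Pb-ERG, Trp53pc-/-, where it fell by 0.45 (adjusted p = 0.0326). The fall passed the test under 8 of 16 alternatives. With FPKM as deposited it was -0.017 (adjusted p = 0.958), in the fit on 6 libraries its adjusted p was 0.115, and it lost its call under 4 of the 6 omissions of a library, those of Pb-ERG, Trp53pc-/- replicates 1 and 2 and Trp53pc-/- replicates 1 and 2 (adjusted p of 0.0635 to 0.104). The groups overlapped in neither comparison. The difference between the 2 effects was -1.03 and did not pass the interaction test (adjusted p = 0.248), so it is given as values only.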

How the results depend on the processing

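Erg was upregulated under all 16 alternatives, by 2.31 to 4.21. The counts of upregulated and downregulated genes were 27 and 1 at an adjusted p under 0.001, 812 and 273 at an absolute log2 difference of at least 1, 3279 and 178 with FPKM as deposited, 209 and 42 in the fit on the 6 libraries, and 3796 and 3148 with library weights. The count of falls was 687 with totals that left out dominant genes. Leaving out a library gave 478 to 1929 rises and 276 to 1169 falls. Trimmed-mean scaling, the 2 other filters, a pseudocount of 0.1 and voom kept both counts within 1.5 times.

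The interaction called 2 genes without a filter, 1993 with library weights and 0 to 9 when a library was left out, and 0 under the other alternatives. With FPKM as deposited the median over all genes was 0.29.

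Genes whose sign changed did not pass the test where it changed. They were Adipoq (0.12 with a pseudocount of 0.1, 0.86 in voom, and -1.69 to 0.34 over the omissions of a library), Myh4 (-0.061 with library weights, -0.23 in voom, -0.21 to 2.27 over the omissions), and, over the omissions, Syp (-0.078 to 1.03), Svs4 (-5.29 to 1.69), Tnni2 (-0.093 to 3.18) and Mylpf (-0.067 to 2.47). Svs4, Tnni2, Mylpf and Myh4 changed sign without Pb-ERG, Trp53pc-/- replicate 3 and Syp without Pb-ERG, Trp53pc-/- replicate 1. The cause was not tested.

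Same-numbered libraries of the 2 groups had correlations of deviations of 0.146, -0.0856 and 0.0285, against -0.147 to 0.086 for the other pairs. With 3 mice a group these values cannot show whether same-numbered mice shared a litter or batch, so pairing was not settled. A replicate block gave 1276 rises and 959 falls and 0 interaction calls.

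With 3 mice a group the exact permutation test cannot go below p = 0.1. The labels do not say that littermates or batches were balanced. The median SD on the log2 scale was 0.258 in the Pb-ERG, Trp53pc-/- group and 0.199 in the Trp53pc-/- group.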
